A study of Rattus norvegicus with 10 samples.

Results

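The 10 genes described here belong to T cells and cytotoxic lymphocytes and were read in the rat left ventricle after gene transfer: Cd3e, Cd3g, Cd8a, Cd8b, Cd2, Lck, Gzma, Gzmb, Prf1 and Nkg7. Members were taken by symbol, as every probe set that the platform annotation gave to 1 of these genes alone. This found 14 of the 31042 probe sets that are not array controls, and 10 of 14217 named genes. A further probe set lists Gzmb together with another gene and was left out. Cd8a is read by 3 probe sets, Cd3e and Gzmb by 2 each, and the other 7 genes by 1 each. The ventricles came from male Sprague-Dawley rats of 250 to 300 g, 3 days after transfer of GATA-4 (5 arrays) or of LacZ, the bacterial beta-galactosidase gene (5 arrays). Both groups had a transfer, and no ventricle without one was analysed here. The sources used here do not give the vehicle, the site of delivery or the cells reached. Groups follow the source label, since the titles name GATA-4 for all 10 arrays. Array numbers only name the arrays, and no label names an animal, so p-values measure the spread between these samples, which may be technical.

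T cells recognise peptide on major histocompatibility molecules through a receptor whose signal is carried into the cell by the CD3 chains. CD8 binds class I molecules beside that receptor, and the kinase Lck, held on the tails of CD4 and CD8, starts the phosphorylation cascade. Cytotoxic T cells and natural killer (NK) cells kill by releasing granules, in which perforin lets granzymes enter the target cell. Rat NK cells also carry CD8 alpha, so that this chain, unlike CD3 or CD8 beta, is shared by both kinds of cell. In the heart these cells are a small part of the tissue, and they are known from viral myocarditis, infarction and graft rejection.

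Arrays were alike in brightness except for 1. The 2%-trimmed mean signal lay at 249 to 314 on the LacZ arrays and at 249 to 329 on GATA-4 arrays 2 to 5, but at 142 on GATA-4 array 1, here the dim array. All values below are log2 signals after quantile normalization. The transferred gene, Gata4, was at least 11.28 on every GATA-4 array and at most 10.82 on every LacZ array, a difference of 0.79 (SE 0.09; limma adjusted p = 0.00131). The 9 cardiac muscle markers found on the array had a summed level of 16.55 to 16.59 with LacZ and 16.51 to 16.58 with GATA-4, and none passed the test (median difference -0.01).

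No member passed the test for a difference between GATA-4 and LacZ, although all 14 probe sets read higher on average with GATA-4. So did all 10 genes by their brightest probe set, against 48.1% of all named genes. The signs of the 10 genes are not independent, since 43 of their 45 pairs had a positive Pearson r over the arrays (median 0.44). Tested probe sets were those with a mean log2 signal above 5.17, the 40th percentile of all, and a probe set was called where limma's p, adjusted by the Benjamini-Hochberg method over all probe sets tested, fell under 0.05. Of the 14 member probe sets 13 passed that filter, and 0 were called, where 5.3% of all 18625 tested probe sets were. The second Cd3e probe set was too dim for it. In limma without the filter 0 of 14 were called, against 1.99% of all probe sets. There, 3 of the 10 genes, Gzma, Gzmb and Nkg7, had an unadjusted p under 0.05 by their brightest probe set, against 19.9% of all named genes. In none of the 10 genes did the groups separate fully, which they did in 7.66% of all named genes. The median difference over the 10 genes was 0.32, from 0.04 for Lck to 0.75 for Gzmb, beside -0.01 over all named genes. These are whole pieces of ventricle, in which fewer or more cells of a type and less or more RNA per cell cannot be told apart.

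**Figure D1:**
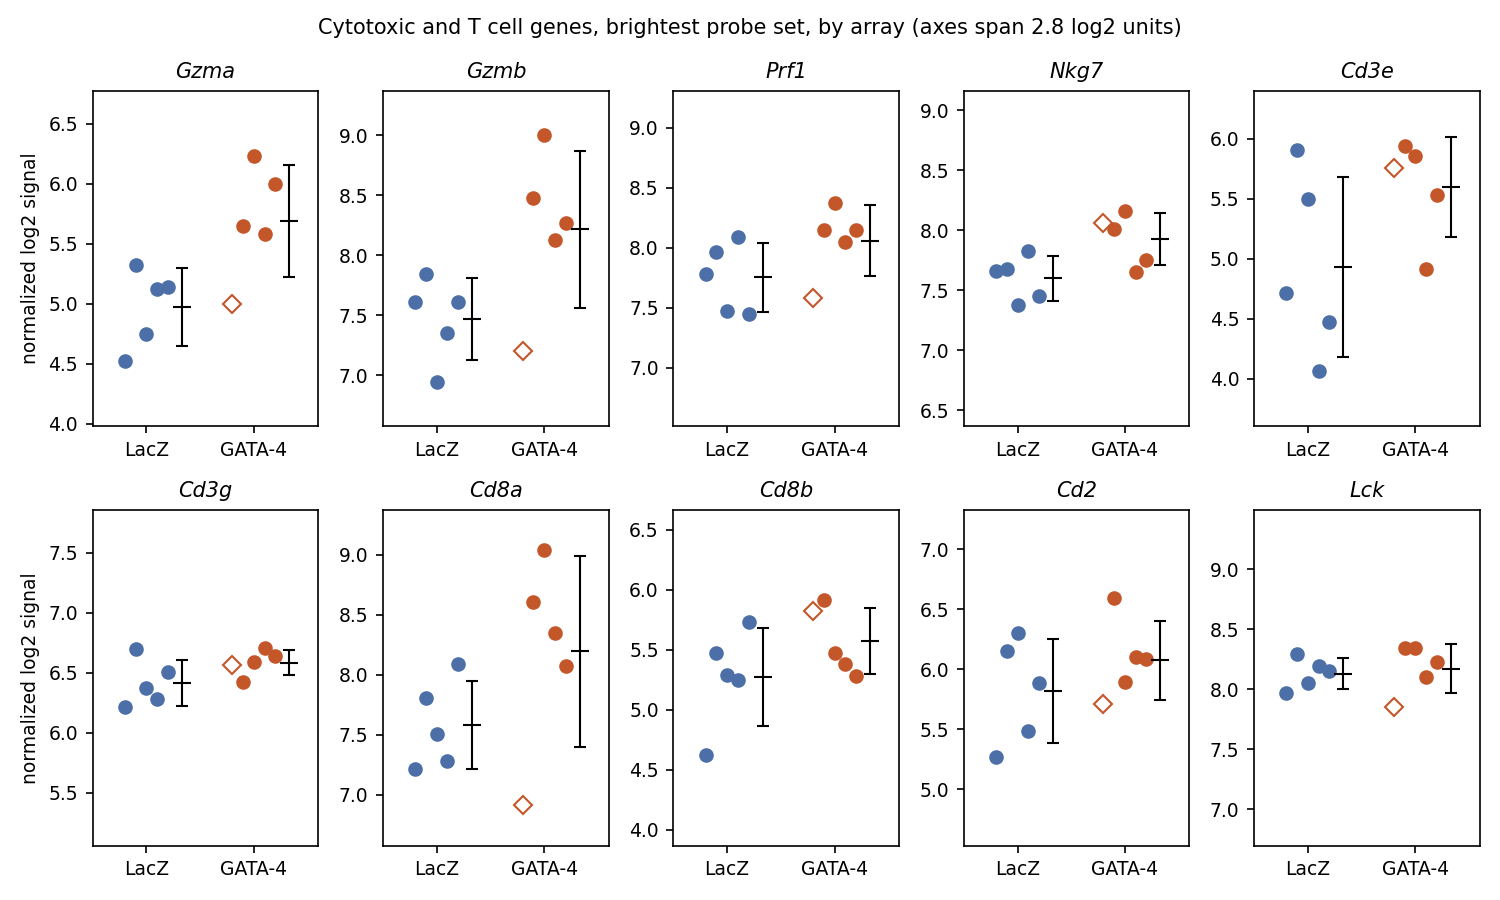
Normalized log2 signal of each gene's brightest probe set on 5 LacZ and 5 GATA-4 arrays. Points are arrays, the open diamond is the dim array (GATA-4 array 1), and bars give the mean and SD. Every vertical axis spans the same range in log2 units. For Gzma and Gzmb the 4 filled GATA-4 points lie above all LacZ points, and the open diamond lies among the LacZ points.

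The 4 granule genes are shown with their promoters, which were chosen because all 4 hold the same short motif. The sequences are RefSeq's, build GRCr8, from 250 bases before to 50 after the start of the gene, 5' to 3' on the strand of the gene. Capitals mark TGTGGT, the core that RUNX factors bind, or its reverse complement ACCACA, and in Gzmb also TGAGTCA, the reverse complement of the AP-1 site TGACTCA.
Gzmb, chr15:34462420-34462719, - strand: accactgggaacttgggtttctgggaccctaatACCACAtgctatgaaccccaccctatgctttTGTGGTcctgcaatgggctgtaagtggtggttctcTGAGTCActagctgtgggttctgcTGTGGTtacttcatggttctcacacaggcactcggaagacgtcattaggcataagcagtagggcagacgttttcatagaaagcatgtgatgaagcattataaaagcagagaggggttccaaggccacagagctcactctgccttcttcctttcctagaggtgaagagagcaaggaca
Gzma, chr2:46485647-46485946, - strand: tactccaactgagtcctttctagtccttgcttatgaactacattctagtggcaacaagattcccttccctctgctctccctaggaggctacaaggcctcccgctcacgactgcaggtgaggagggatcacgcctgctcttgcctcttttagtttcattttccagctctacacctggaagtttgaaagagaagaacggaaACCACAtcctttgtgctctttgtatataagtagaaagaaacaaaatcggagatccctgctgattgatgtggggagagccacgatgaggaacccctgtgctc
Prf1, chr20:29788790-29789089, + strand: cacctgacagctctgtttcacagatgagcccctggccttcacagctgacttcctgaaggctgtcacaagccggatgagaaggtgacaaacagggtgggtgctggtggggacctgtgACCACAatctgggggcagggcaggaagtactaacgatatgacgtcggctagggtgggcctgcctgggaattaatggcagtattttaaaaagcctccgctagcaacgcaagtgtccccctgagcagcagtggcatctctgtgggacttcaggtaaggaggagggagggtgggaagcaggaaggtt
Nkg7, chr1:102981247-102981546, + strand: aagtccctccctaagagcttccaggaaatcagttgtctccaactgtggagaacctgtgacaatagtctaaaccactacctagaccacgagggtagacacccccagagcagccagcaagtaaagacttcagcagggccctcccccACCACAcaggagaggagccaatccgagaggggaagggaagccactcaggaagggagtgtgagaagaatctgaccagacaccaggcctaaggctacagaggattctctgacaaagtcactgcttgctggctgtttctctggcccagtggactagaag

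The RUNX core was sought on both strands. It was found in 6 of the 10 promoters in the table for 9 of the members (Gzmb, Gzma, Prf1, Nkg7, Cd2 and Lck). Of all 33469 promoters of this length, 17.3% held it. Gzmb held 3 copies, which begin at positions -217, -186 and -127 from the start site, with the AP-1 letters at -151 between them. Gzma, Prf1 and Nkg7 held 1 copy each, at -51, -134 and -106. The AP-1 letters occurred in no other member and in 4.63% of all promoters. A GATA core (AGATA or TGATA followed by A or G, on either strand) stood in 1 member, Cd8a, at -190, and in 30.3% of all promoters. No marked match overlapped another. These matches describe letters in a window. They were not tested as binding sites or for a link to the differences between groups. Lck has 2 promoters in the table, of which 1 held the RUNX core, and Cd8b was not matched.

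Among the 4 granule genes described here, Gzma and Gzmb stood out by size of difference but not by the test. Granzymes as a class did not. Gzmk and Gzmm, looked up after their values were seen, differed by 0.12 and 0.31 (limma adjusted p = 0.698 and 0.435). Gzmb, the granzyme that cleaves caspases in the target cell, read 7.61, 7.84, 6.94, 7.36 and 7.61 on LacZ arrays 1 to 5 and 7.21, 8.48, 9.00, 8.13 and 8.27 on GATA-4 arrays 1 to 5. GATA-4 arrays 2 to 5 thus lay above every LacZ array, and the dim array lay below 4 of the 5. The means were 8.22 ± 0.66 and 7.47 ± 0.34 (SD, n = 5 each), a difference of 0.75 (SE 0.27, 95% interval 0.16 to 1.34), or 1.68-fold, with a limma adjusted p of 0.131. The second Gzmb probe set had the same shape. It read 6.36 to 7.02 with LacZ, 5.97 on the dim array and, on the remaining GATA-4 arrays, 7.58 to 8.59. Its difference was 0.70 (SE 0.36; limma adjusted p = 0.279).

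Gzma, a granzyme of tryptic specificity, read 4.53, 5.32, 4.75, 5.13 and 5.14 on the LacZ arrays and 5.00, 5.65, 6.23, 5.58 and 6.00 on the GATA-4 arrays. Here too 4 of 5 GATA-4 arrays lay above all LacZ arrays, and the dim array sat inside the LacZ range. The difference was 0.72 (SE 0.25, 95% interval 0.17 to 1.27), or 1.65-fold (limma adjusted p = 0.118). With LacZ the mean of 4.97 ± 0.33 (SD, n = 5) was below the filter value of 5.17, so this fold is approximate. With 16 added to every signal before log2 the difference was 0.52.

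Perforin, Prf1, opens the target membrane. It read 7.78, 7.97, 7.47, 8.09 and 7.45 with LacZ and 7.58, 8.15, 8.37, 8.04 and 8.15 with GATA-4, so that the groups overlapped through the dim array and array 4. The difference of 0.31 (SE 0.17) had a limma adjusted p of 0.308 and a 95% interval of -0.06 to 0.67. Nkg7, a membrane protein of cytotoxic granules, read 7.66, 7.67, 7.37, 7.83 and 7.45 with LacZ and 8.06, 8.01, 8.16, 7.65 and 7.76 with GATA-4. Unlike Gzma and Gzmb, Nkg7 was high on the dim array, the second highest of the 10, and low on GATA-4 arrays 4 and 5. The difference was 0.33 (SE 0.13, 95% interval 0.04 to 0.61), with a limma adjusted p of 0.164.

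The CD3 chains were near the limit of the filter or close to level. Cd3e, whose tail carries a phosphorylation motif of the receptor complex, read 4.71, 5.91, 5.50, 4.07 and 4.48 with LacZ and 5.75, 5.94, 5.86, 4.91 and 5.53 with GATA-4. LacZ array 2 was higher than all but 1 GATA-4 array, and the spread with LacZ was wide (SD 0.75, n = 5). The difference of 0.67 (SE 0.34) had a limma adjusted p of 0.274. The dim Cd3e probe set read 3.97 to 5.40 with LacZ and 5.20 to 5.54 with GATA-4, a difference of 0.60 (SE 0.28; adjusted p = 0.319 in limma without the filter).

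Cd3g, the gamma chain, had a smaller difference than Cd3e. It read 6.21, 6.70, 6.37, 6.28 and 6.51 with LacZ and 6.56, 6.43, 6.59, 6.71 and 6.64 with GATA-4. All GATA-4 arrays lay above the LacZ median, and LacZ array 2 lay above all but 1 of them. The difference was 0.17 (SE 0.13) with a limma adjusted p of 0.477, and its 95% interval of -0.11 to 0.46 reaches 1.37-fold. Cd3d lies between Cd3g and Cd3e in the gene order of the RefSeq table. It and the zeta chain gene Cd247 were looked up after their values were seen. Cd3d, below the filter, differed by -0.15 (SE 0.55 in limma without the filter). Cd247 differed by -0.28 (SE 0.14, adjusted p = 0.264 in limma). Without the dim array these differences were 0.32 for Cd3d and -0.23 for Cd247.

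Cd8a, the CD8 chain shared by T and NK cells of the rat, differed among its probe sets. The brightest read 7.21, 7.81, 7.51, 7.28 and 8.09 with LacZ and 6.91, 8.60, 9.04, 8.35 and 8.07 with GATA-4. The dim array was the lowest of all 10. GATA-4 array 5 lay just under the top LacZ array, and arrays 2 to 4 lay above it. The difference was 0.61 (SE 0.32; limma adjusted p = 0.283).

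On the second Cd8a probe set the dim array, at 6.98, was higher than 4 of the 5 LacZ arrays, which read 6.28, 7.51, 6.73, 6.90 and 6.84. The other GATA-4 arrays read 7.50 to 7.73. This probe set had the smallest adjusted p of all members in limma, 0.102, for a difference of 0.62 (SE 0.21, 95% interval 0.17 to 1.06). The third differed by 0.22 (SE 0.21; adjusted p = 0.580 in limma).

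Cd8b encodes the beta chain of the CD8 heterodimer of T cells and neighbours Cd8a in the RefSeq gene order. It read 4.62, 5.47, 5.29, 5.25 and 5.73 with LacZ and 5.82, 5.91, 5.47, 5.38 and 5.28 with GATA-4. Its dim-array value was the second highest of the 10, the reverse of the brightest Cd8a probe set, and the groups overlapped widely. The difference of 0.30 (SE 0.23) had a limma adjusted p of 0.478. Whether Cd8a and Cd8b differed in their response was not tested.

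Cd2, an adhesion receptor of T and NK cells, read 5.27 to 6.30 with LacZ and 5.71 to 6.59 with GATA-4. Only GATA-4 array 2 exceeded all LacZ arrays, and the difference was 0.26 (SE 0.23; limma adjusted p = 0.549). Lck, the kinase that starts receptor signalling, had the smallest difference between group means of the 10 genes. It read 7.97 to 8.30 with LacZ and 7.85 to 8.34 with GATA-4, with group means of 8.13 ± 0.13 and 8.17 ± 0.21 (SD, n = 5 each). The difference of 0.04 (SE 0.12; limma adjusted p = 0.875) had a 95% interval of -0.22 to 0.30, at most 1.23-fold.

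**Figure D2:**
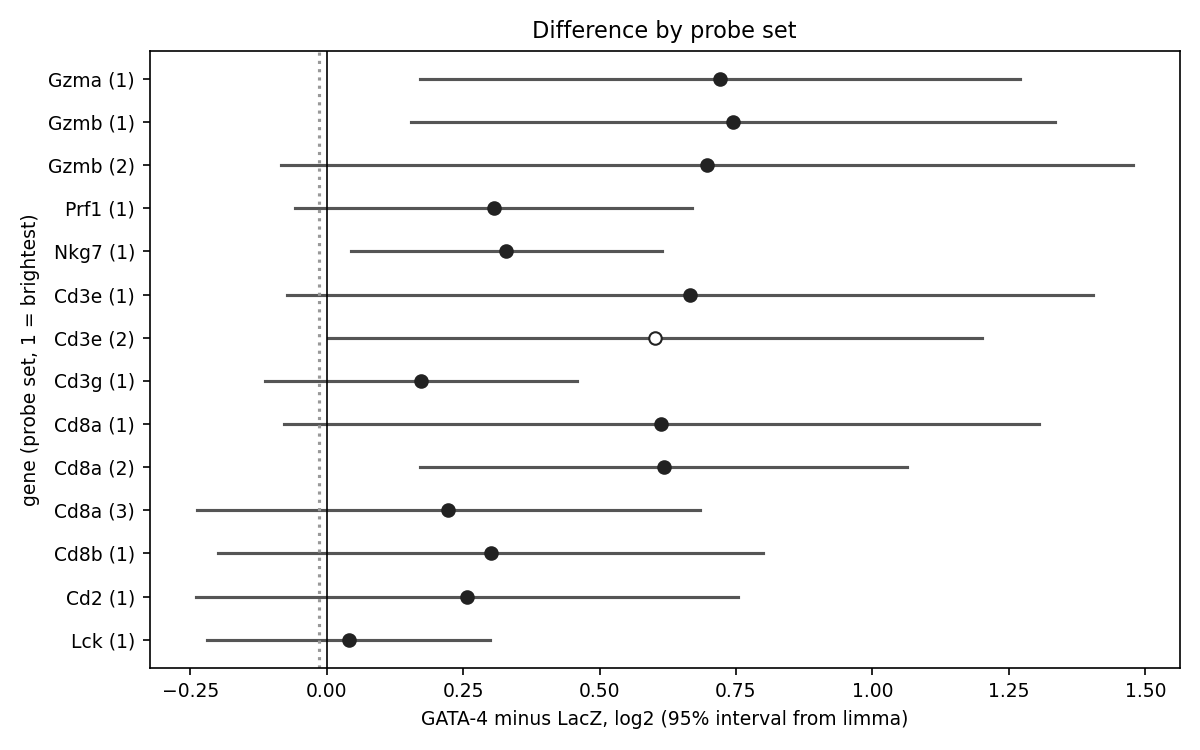
Difference between GATA-4 and LacZ (log2) for each of the 14 probe sets with its 95% interval from limma. Numbers in brackets rank the probe sets of a gene by brightness, the open circle is the Cd3e probe set below the filter (interval from limma without the filter), and the dotted line is the median of all named genes (-0.01). All points lie to the right of 0, from 0.04 for Lck to 0.75 for Gzmb, and the interval of Lck is the narrowest.

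Most members were high on the same arrays, though the single highest array differed among them. On each of GATA-4 arrays 2, 3 and 5, 9 of the 10 genes lay above their own median over the 10 arrays, as did 7 on LacZ array 2, 4 on the dim array and 0 on LacZ array 1. GATA-4 array 3 was the highest of the 10 for 5 genes (Gzma, Gzmb, Prf1, Nkg7 and Cd8a), and GATA-4 array 2 for 4 (Cd3e, Cd8b, Cd2 and Lck). LacZ array 1 was the lowest for 4 genes. The mean deviation of the 4 granule genes from their own means over the arrays was -0.58 to -0.01 on LacZ arrays, -0.25 on the dim array and 0.14 to 0.73 on GATA-4 arrays 2 to 5. For the other 6 genes, the T cell surface genes and Lck, it was -0.53 to 0.19 with LacZ, -0.09 on the dim array and, on the rest of the GATA-4 arrays, 0.06 to 0.44. LacZ array 2, at 0.19, thus lay above GATA-4 arrays 4 and 5 for the latter but below both for the granule genes. The difference between these sets was not tested.

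**Figure D3:**
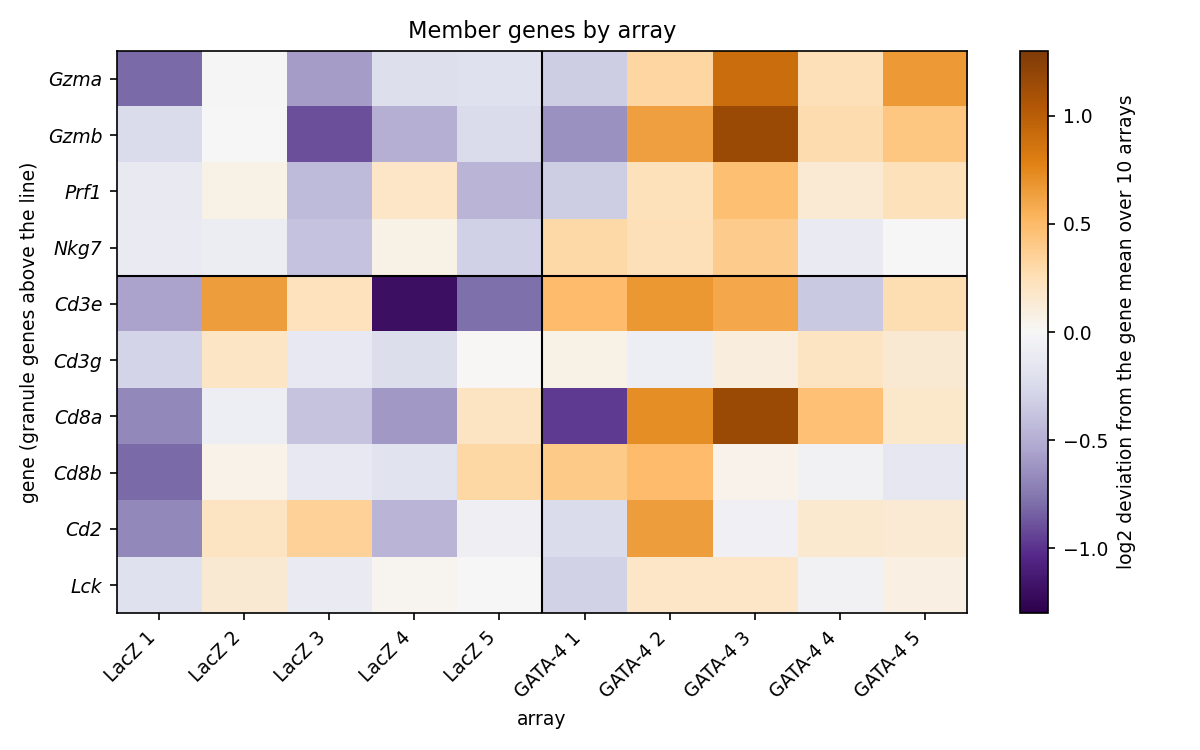
Log2 deviation of each gene's brightest probe set from its mean over the 10 arrays, by array. Granule genes stand above the horizontal line and GATA-4 arrays right of the vertical line. On the dim array (GATA-4 1) Gzma, Gzmb, Prf1, Cd8a, Cd2 and Lck are below their means, while Nkg7, Cd3e, Cd3g and Cd8b are above theirs.

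The count of members called rested on the dim array. Without it limma called 7.86% of all tested probe sets higher with GATA-4, and 15.3% in either direction. Of 13 tested member probe sets it called 5, all higher with GATA-4. They were both Gzmb probe sets (differences of 1.00 and 1.09, adjusted p = 0.00622 and 0.00525), Gzma (0.90, adjusted p = 0.0198) and 2 of the 3 Cd8a probe sets (0.94 and 0.74, adjusted p = 0.0113 and 0.0217). Prf1 differed by 0.43 with an adjusted p of 0.0616 in that limma fit, and Nkg7, Cd2, Cd8b, Lck and the CD3 genes had adjusted p-values from 0.149 to 0.553. Leaving out an array that reads low in the higher group raises these differences of itself. Limma's array weights, which gave the dim array a weight of 0.16 and the others 0.79 to 2.07, called the same 5 probe sets, where 15.5% of all were called. Without LacZ array 2, high for Cd3e and the second Cd8a probe set, 1 member probe set was called. It was that Cd8a probe set (difference 0.78, adjusted p = 0.0411 in limma), where 3.57% of all probe sets were called.

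Related genes came from 6 lists of T and NK cell genes written from general knowledge. Over the whole array 3.04% of tested probe sets rose, and 7.86% without the dim array. Of 6 other genes of the T cell receptor complex and coreceptors 0 passed, with and without the dim array, with a median of 0.18. Among these 6 the widest difference was that of Cd5, a restraining coreceptor, at 0.39 (SE 0.24, limma adjusted p = 0.378). Below the filter, differences were -2.04 for Cd28 (adjusted p = 0.0735 in limma without the filter), -0.15 for Cd3d, 0.12 for Cd40lg and 0.72 for Trat1. Of 12 receptor signalling genes 0 passed (median 0.20). Vav1, a guanine nucleotide exchange factor of blood cells, came nearest, with 0.65 (SE 0.18; adjusted p = 0.0568 in limma). Without the dim array 4 of these 12 rose (Lcp2, Ptprc, Vav1 and Csk), and which cells carried them was not tested.

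Runx3, which directs CD8 T cell and NK cell genes, was the 1 of 9 lymphocyte transcription factor genes that rose (median of the list -0.03). It read 6.37, 6.74, 6.26, 6.18 and 6.38 with LacZ and 6.85, 7.31, 7.32, 7.28 and 7.22 with GATA-4. All GATA-4 arrays, the dim array included, lay above all LacZ arrays. The rise was 0.81 (SE 0.14), or 1.75-fold, with a limma adjusted p of 0.0114, and it passed with each of the 10 arrays left out in turn. A second Runx3 probe set, below the filter, differed by 0.06 and did not separate the groups.

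Of 12 other granule and granule-release genes 0 passed (median 0.16). The widest of these 12 was Stxbp2, which serves granule fusion, at 0.42 (SE 0.19, limma adjusted p = 0.227). Below the filter, differences were 1.46 for Gzmf (adjusted p = 0.204 in limma without the filter), 0.70 for Unc13d and -0.14 for Ctsw. Without the dim array 3 of the 12 rose (Srgn, Ctsc and Serpinb9) and 1 fell (Tnfsf10). Of 11 NK receptor and adaptor genes 1 rose: Fcgr3a, an Fc receptor that macrophages also carry, by 0.80 (SE 0.21; limma adjusted p = 0.0463), a call lost 8 times of 10 as single arrays were left out. The median of that list was 0.19. Of 16 cytokine, receptor and homing genes 2 rose (median 0.28). These were Cxcl10, an interferon-induced chemokine that draws activated T cells, by 1.20 (SE 0.24; limma adjusted p = 0.0197), and Coro1a, an actin regulator of all leukocytes, by 0.74 (SE 0.12; adjusted p = 0.00749). On every GATA-4 array both lay above every LacZ array. Without the dim array 6 of the 16 rose.

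**Figure D4:**
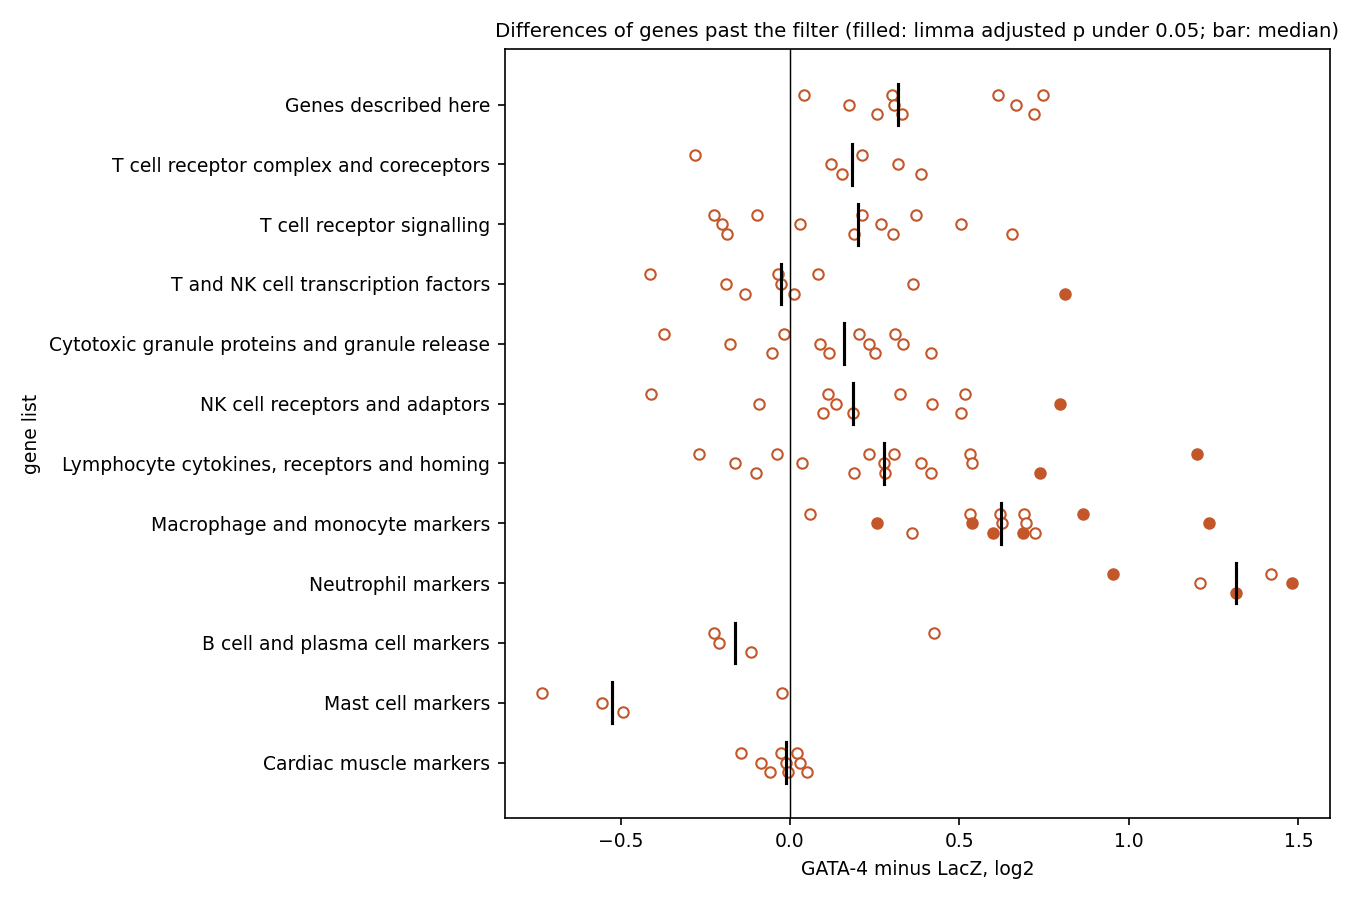
Differences between GATA-4 and LacZ (log2) of the 10 genes described here and of the genes past the filter in each list, by brightest probe set. Each point is a gene, filled where the limma adjusted p is under 0.05, and the vertical bar is the list's median. The 10 genes have a median of 0.32, the other lymphocyte lists have medians of -0.03 to 0.28, and the macrophage (0.62) and neutrophil (1.32) lists lie further right.

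Markers of other blood cells moved between the same groups. Of 14 macrophage and monocyte markers 6 rose and none fell (median 0.62), namely Tyrobp by 1.24, Cd14 by 0.86, Cd68 by 0.69, Mrc1 by 0.60, Csf1r by 0.54 and Lyz2 by 0.26. Their adjusted p-values in limma lay between 0.00074 and 0.0278. Tyrobp was counted here and not among the NK receptors and adaptors, and which cells carried these 6 genes was not tested. With each array left out in turn, Mrc1 lost the call 6 times of 10, Lyz2 8 times and Cd14 once. Without the dim array 12 rose. The summed level of the list's genes lay at 13.92 to 14.14 (log2) with LacZ and 14.33 to 14.77 with GATA-4.

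Neutrophil markers rose in 3 of 5 past the filter (median 1.32), Il1r2, Lcn2 and Csf3r by 1.48, 1.32 and 0.95. Csf3r lost the call 8 times and Il1r2 7 times of 10 as single arrays were left out. Without the dim array all 5 rose. The summed level of the 9 genes of this list on the array was 10.74 to 11.65 with LacZ and 11.39 to 13.05 with GATA-4. Much of that sum was Lcn2, which alone read 10.45 to 11.12 with LacZ and 11.21 to 12.72 with GATA-4. For the 5 genes past the filter, the mean log2 deviation from each gene's own mean was 0.81 to 1.35 on GATA-4 arrays 2 to 5. On the dim array it was -1.04. The dim array was below those 4 arrays in most lists. For the macrophage list it had -0.12, where they had 0.22 to 0.55. It was the lowest of all 10 arrays for NK receptors (-0.48), receptor signalling (-0.34), transcription factors (-0.32) and granule release (-0.30), but the highest for the receptor complex and coreceptors (0.22).

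B and plasma cell markers (4 past the filter of 8 on the array) and mast cell markers (4 of 10) had no called gene, with medians of -0.16 and -0.53. Summed over all genes of each list on the array, levels were 8.63 to 9.03 and 8.54 to 9.06 with LacZ. With GATA-4 they were 8.63 to 9.00 and 8.23 to 8.80. In none of the lists was a gene at the floor of 0 on all arrays. The part that other blood cells have in the members' signals was not tested.

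The 5 tested genes whose pattern over the 10 arrays was most like the mean of the 10 standardized members were sought among 10678 genes. They were Htr2b (Pearson r = 0.98), a serotonin receptor, Sh2b2 (0.96), an adaptor of receptor kinases, Vav1 (0.96), Chst2 (0.95), a sulfotransferase, and Eef1a1 (0.95), a translation elongation factor. Spearman's rho ran from 0.93 to 0.98. Without the arrays furthest from the median, GATA-4 array 3 and LacZ array 1, r ran from 0.93 to 0.96. As the highest of so many over arrays that share their normalization and groups, these values are a description. None of the 5 passed the test between groups, with differences of 0.81, 0.53, 0.65, 0.43 and 0.05 and limma adjusted p-values from 0.0568 to 0.487.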

How the data were processed

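Signals of 10 arrays, 5 per group, were used as linear probe set intensities, deposited by the authors as 1 table. They came from GCOS, the software of the array's maker, per the submitters' processing notes. Its version, summary method and scaling were not given in the sources used here. Depth does not apply to arrays, and their number limits the precision. Genes were named through GEO's platform annotation (1 gene for 20826 probe sets, several for 436, none for 9780), and symbols were updated by gene ID from RefSeq's GRCr8 table, which held 20764 of 21268 annotated probe sets.

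The log2 signals were quantile normalized without the 57 controls and floored at 0. Probe sets whose mean exceeded the 40th percentile entered a limma fit (version 3.58.1, R 4.3.3; linear model with trended eBayes, no covariates, two-sided, Benjamini-Hochberg adjustment), and the brightest probe set stood for a gene. Rose and fell mean an adjusted p under 0.05. The fit was checked on simulated data. Members and lists were chosen with earlier results of these data known, so no p over a list is given. Genes outside the members are named where they passed the test, had the widest difference among a lymphocyte list's tested genes or were most like the members. Others are marked in the text. Alternatives were the scaling, added constant, floor, filter, moderation, array weights (statmod 1.5.0) and leaving out arrays. List counts without the dim array, and the genes named with them, were added after seeing the data.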

Additional observations from a re-analysis of the deposited data

How the results depend on the processing

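No paired analysis was possible because the labels give no replicate numbers that the groups share. With all arrays, no alternative setting called a member probe set except array weights, which called 5. Median centring without the dim array called 5 as well. Leaving out single arrays called 0 to 5, and the groups then separated fully in 0 to 2 of the 10 genes. Those 2, without GATA-4 array 1, were Gzma and Gzmb, and the same 2 separated under median centring without it. With only the 8 arrays whose record numbers are consecutive (without GATA-4 arrays 4 and 5) 1 gene separated, Nkg7. The titles number all 10 arrays in sequence, and no label names a run or batch. The median difference over the 10 genes stayed within 0.30 to 0.47. Lck changed sign 3 times as single arrays were left out, in a range of -0.0024 to 0.12, and no other member did in any setting. Over the whole array 988 probe sets were called, but 9 in the signals as deposited, 619 without the filter and 539 without the trend. Array weights called 2890. The 8 arrays with consecutive record numbers called 201, median centring without the dim array 2616, and fits with single arrays left out 174 to 2849. Without the dim array more probe sets were called than with all arrays (2849, or 2616 with median centring, beside 988). Every other fit with fewer arrays called fewer. Fewer arrays cost precision in any fit, and the cause of these changes was not tested. Signals near the filter value limit Gzma, Cd3e and Cd8b most.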
